A study of Bos taurus with 33 samples.

Results

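The GIMAP genes (GTPases of the immunity-associated protein family) were followed in bovine oocytes and cumulus cells (CC). The members, GIMAP4, GIMAP5, GIMAP6, GIMAP7 and GIMAP8, were taken by gene symbol, and they were chosen by the CPM values of CC pools, because GIMAP8 was lowest in CC from small follicles. Of the 5 members, 4 were found among the 17543 genes of the oocyte and CC tables together, and GIMAP6 was not analysed here. In the CC table only GIMAP8 carried its symbol, so GIMAP4, GIMAP5 and GIMAP7 were matched there through the Ensembl identifier that the oocyte table pairs with each symbol. The identifiers were ENSBTAG00000046257 for GIMAP4, ENSBTAG00000004894 for GIMAP5, ENSBTAG00000001198 for GIMAP7 and ENSBTAG00000014402 for GIMAP8.

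GIMAP proteins bind GTP through a conserved G domain, and several of them sit on intracellular membranes. They are best known from lymphocytes, where they act in cell survival and homeostasis, and loss of GIMAP5 leads to a shortage of T cells in rodents. GIMAP8 differs from its relatives by carrying several G domains in a single protein. Cumulus cells surround the oocyte, feed it through gap junctions and expand after the gonadotropin surge. The follicle around them holds blood vessels and white blood cells outside the granulosa layer.

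The samples were pools of 4 oocytes or of the CC of the same 4 oocytes, so oocyte and CC pools were not independent of each other. The labels do not say which CC pool belongs to which oocyte pool. The complexes came from adult suckled postpartum beef cows (Hereford-Angus crossbred), all of which received GnRH and, later, prostaglandin F2 alpha. Small follicles (11.7 mm or less) and large follicles (12.7 mm or more) came from cows without estrus that received a second GnRH injection. Spontaneous follicles (11.7 to 14.0 mm) came from cows that showed estrus, had their own gonadotropin surge and did not receive that injection. Complexes were aspirated about 20 or 23 h after the injection or estrus, depending on the label. There were 6 small, 6 large and 5 spontaneous CC pools, and 6, 6 and 4 oocyte pools. The spontaneous group thus differed from the other groups in estrus, the source of the surge, the injection and the range of follicle size at once. These cannot be told apart. Each pool averaged 4 complexes, so differences between single cows could not be seen.

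The values were CPM, the reads of a gene scaled to 1000000 reads assigned to genes, and every value in both tables corresponded to a whole number of reads. CC pools held 1911600 to 5772431 assigned reads and oocyte pools 7664375 to 17934916. A count of 3 reads, the upper limit that a count of 0 allows, stood for 0.52 to 1.57 CPM in CC and 0.167 to 0.391 CPM in oocytes, for counting error alone. Tissue identity followed the labels: the 14 oocyte genes listed, such as ZP2 and GDF9, together held 11803 to 16067 CPM in oocyte pools, the 7 of them matched in the CC table held 1.71 to 13.7 CPM in CC pools, and the 13 cumulus and granulosa genes, such as INHA and TNFAIP6, held 5499 to 14308 CPM in CC pools but 265 to 1054 CPM in oocyte pools. A transcript was retained for tests when 5 or more CC pools, or 4 or more oocyte pools, held it at 5 CPM or above, which left 9712 transcripts in CC and 10076 in oocytes. The oocyte and CC tables were scaled separately, so levels in oocytes and CC are set side by side without a test.

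GIMAP8 was the member with reads in every CC pool, and its level was low in all pools from small follicles. It stood at 2.45, 2.77, 3.14, 1.52, 2.99 and 2.77 CPM in small replicates 1 to 6, which rested on 5 to 16 reads per pool. In large replicates 1 to 6 it stood at 44.3, 7.47, 20.1, 8.39, 30.1 and 29.1 CPM, from 21 to 191 reads. In spontaneous replicates 1 to 5 it stood at 47.2, 17.4, 18.7, 18.5 and 13.0 CPM, from 59 to 226 reads. Small pools lay close together, whereas large and spontaneous pools were spread widely and overlapped each other. No small pool reached the lowest large or spontaneous pool.

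**Figure D1:**
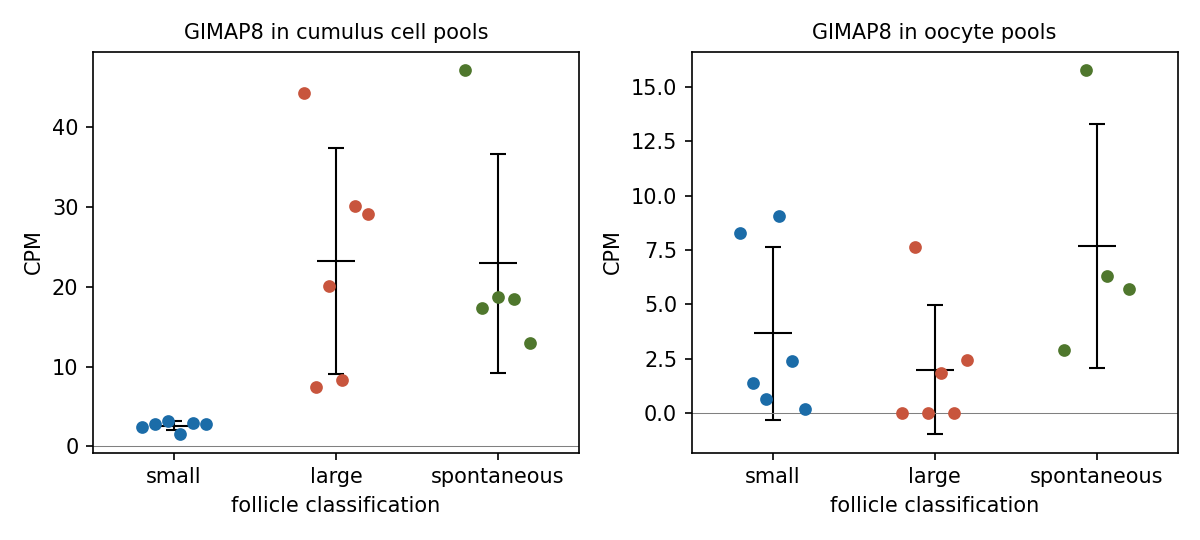
GIMAP8 in CPM (y axis, linear) in CC pools (left) and oocyte pools (right) by follicle classification (x axis). Each point is a pool, the horizontal bar is the mean and the whiskers are 1 SD. All 6 small CC pools lie between 1.52 and 3.14 CPM, below every large and spontaneous CC pool, while the oocyte classifications overlap.

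Mean GIMAP8 in CC was 2.61 ± 0.58 CPM (SD, n = 6) in pools from small follicles, 23.2 ± 14.2 CPM (SD, n = 6) in those from large follicles and 23.0 ± 13.8 CPM (SD, n = 5) in spontaneous pools. The ratio of means was 8.91 for large over small and 8.80 for spontaneous over small. The lowest large pool was 2.38-fold above the highest small pool, and the lowest spontaneous pool was 4.14-fold above it. On the log2(CPM + 1) scale, which understates the change of a low transcript, the difference was 2.51 (SE 0.41) from small to large and 2.60 (SE 0.34) from small to spontaneous. These differences describe the values by which the family was chosen and carry no test. No small pool reached 5 CPM, against all 6 large and all 5 spontaneous pools, so GIMAP8 was retained through the groups in which it was high and had to differ from the small group.

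Against the background of all transcripts, 0.813% of the 9712 retained CC transcripts passed a nominal p of 0.01 in limma between small and large pools, and 0.247% had no overlap between these groups. Between small and spontaneous pools 2.38% passed and 1.16% did not overlap. The calls leaned to one side: 67 of 79 were higher in large pools (0.69% of retained transcripts) and 221 of 231 were higher in spontaneous pools (2.28%). After median-of-ratios scaling the split became 44 of 70 and 78 of 126. The median difference of all transcripts was 0.045 for small to large and 0.16 for small to spontaneous on the log2(CPM + 1) scale, and -0.0099 and 0.011 after that scaling, when GIMAP8 differed by 2.46 in both comparisons. The share of reads from 11 mitochondrially encoded genes had medians of 21.3% in small, 18.9% in large and 13.9% in spontaneous CC pools. Its ranges overlapped, at 11.4 to 38.7%, 12.8 to 24.3% and 12.7 to 19.8%, and the difference was not tested. Computed without these genes, the GIMAP8 difference was 2.496 for large and 2.54 for spontaneous pools, as a description, and the part of this share in it was not tested.

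Every small pool lay below every large and spontaneous pool for 6 retained transcripts in all, 0.0618% of those retained. The other 5 were SLC2A1, a glucose transporter, TNFRSF1A, a receptor of tumour necrosis factor, CALU, a calcium-binding protein of the secretory pathway, OAT, ornithine aminotransferase, and RPS6KA3, a ribosomal S6 kinase. These 5 were named after their values were seen. The mean of the large and spontaneous pools over the mean of the small pools was 8.86 for GIMAP8 and lay between 1.37 for RPS6KA3 and 1.91 for SLC2A1 in the others.

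Large and spontaneous CC pools were compared next, a contrast that the choice of the family did not use. GIMAP8 did not differ beyond the spread of the pools, with a log2(CPM + 1) difference of 0.09 (SE 0.42; limma adjusted p = 0.975). An exact permutation test of the mean CPM, two-sided, gave p = 0.961, where 0.00433 was the smallest value the design allowed. In this comparison 1.66% of retained transcripts passed the nominal threshold, 1.45% were called higher in spontaneous pools, and 0.865% had no overlap. The pools of both groups ranged over similar values, from 7.47 to 44.3 CPM in large and from 13.0 to 47.2 CPM in spontaneous pools, and the sign of the small difference depended on the processing.

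In oocytes GIMAP8 was again the retained member, but its levels did not follow the order seen in CC. Small replicates 1 to 6 held 8.27, 1.40, 0.65, 9.08, 2.41 and 0.17 CPM. Large replicates 1 to 6 held 0, 7.65, 0, 1.86, 0 and 2.45 CPM, and the 3 pools at 0 could have held up to 0.223 to 0.277 CPM. Spontaneous replicates 1 to 4 held 2.92, 15.8, 6.30 and 5.69 CPM. Reads of GIMAP8 came from 13 of 16 oocyte pools, with up to 234 reads in a pool, and the 3 classifications overlapped.

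Mean GIMAP8 in oocytes was 3.66 ± 3.96 CPM (SD, n = 6) in small, 1.99 ± 2.97 CPM (SD, n = 6) in large and 7.67 ± 5.61 CPM (SD, n = 4) in spontaneous pools. The log2(CPM + 1) difference was -0.69 (SE 0.75) from small to large, with a limma adjusted p = 0.997. From small to spontaneous it was 1.16 (SE 0.79), with a limma adjusted p = 0.987. The widest gap was between large and spontaneous oocytes, at 1.84 (SE 0.79), with a limma adjusted p = 0.968. None of the 3 passed the nominal threshold of 0.01, which 0.655%, 0.774% and 0.943% of the 10076 retained oocyte transcripts passed, and comparisons with small pools also had to hold without small replicate 3. Transcripts called higher in the later named group were 0.447%, 0.526% and 0.397%, and those without overlap were 0.258%, 0.903% and 0.913%. Exact permutation tests of the mean CPM gave p = 0.353, 0.257 and 0.0762. Without large replicate 2, the only large oocyte pool above 2.45 CPM, the difference between large and spontaneous oocytes was 2.25 and passed the nominal threshold (limma adjusted p = 0.968), so that the call depended on this pool.

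The other members were near the limit of detection in CC, and none was retained. GIMAP4, whose protein has been studied in T-cell death, had reads in 9 of 17 CC pools and no more than 7 reads in any. GIMAP4 ranged from 0 to 1.57 CPM in small, from 0 to 1.13 CPM in large and from 0 to 1.27 CPM in spontaneous CC pools. These ranges overlapped almost fully, and all but 2 of the values above 0 rested on 5 reads or fewer.

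GIMAP5, which is needed for lymphocyte survival, likewise had reads in 9 of 17 CC pools, with no more than 11 in any. Its levels were 0 to 1.28 CPM in small, 0 to 1.13 CPM in large and 0 to 2.30 CPM in spontaneous CC pools. GIMAP7, which can stimulate GTP hydrolysis by GIMAP2, had reads in 8 CC pools. It reached 10.4 CPM (46 reads) in large replicate 6 and at most 2.29 CPM in any other CC pool. Most of the 74 GIMAP7 reads in CC thus came from a single pool. GIMAP7 counts are uncertain, because the reference gene table lists 4 further genes in this cluster with GIMAP7 as a synonym, and reads could have been divided among such copies.

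Between large and spontaneous CC, exact permutation tests of the mean CPM gave p = 0.446 for GIMAP4, 0.303 for GIMAP5 and 0.459 for GIMAP7. Means were 0.417 ± 0.528 and 0.675 ± 0.516 CPM for GIMAP4, 0.381 ± 0.478 and 0.898 ± 0.961 CPM for GIMAP5, and 2.19 ± 4.11 and 0.475 ± 0.765 CPM for GIMAP7 (SD, n = 6 and 5). No difference was detectable at this depth. In small CC pools the means were 0.333 CPM for GIMAP4, 0.265 CPM for GIMAP5 and 0.290 CPM for GIMAP7, given as a description. These counts were too low to show whether a gap like that of GIMAP8 was present.

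**Figure D2:**
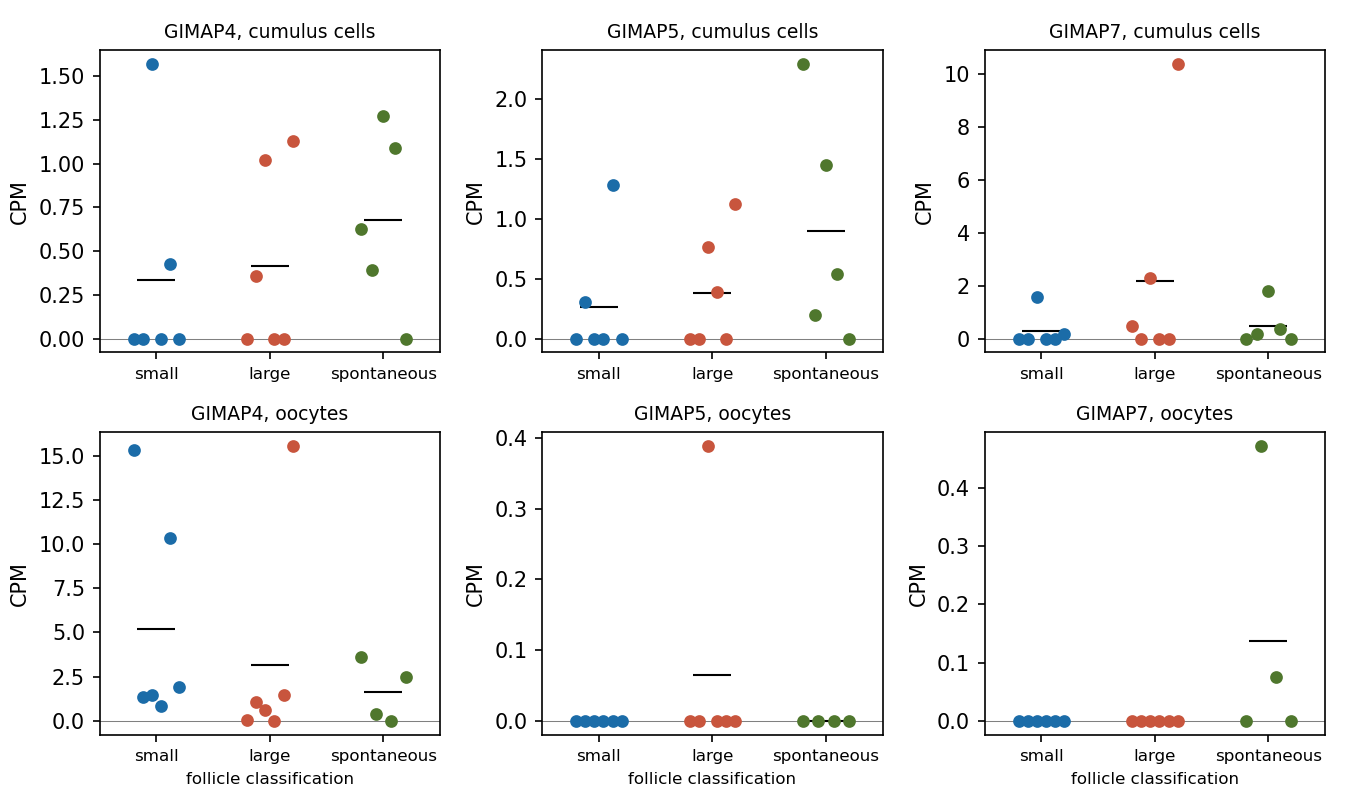
GIMAP4, GIMAP5 and GIMAP7 in CPM (y axes, linear, each with its own range) in CC pools (top) and oocyte pools (bottom) by follicle classification (x axes). Points are pools and horizontal bars are means. GIMAP4 is scattered up to 15.6 CPM in oocytes, GIMAP7 reaches 10.4 CPM in a single large CC pool, and GIMAP5 has reads in a single oocyte pool.

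In oocytes GIMAP4 was the second member with reads in most pools, 14 of 16, and it too varied widely within a classification. Small replicates 1 to 6 held 15.3, 1.33, 1.44, 0.82, 10.4 and 1.89 CPM. Large replicates 1 to 6 held 0.07, 1.06, 0.62, 0, 1.48 and 15.6 CPM, and spontaneous replicates 1 to 4 held 3.59, 0.40, 0 and 2.45 CPM. Pools with 133 to 189 reads set the means of the small and large groups. Exact permutation tests of the mean CPM gave p = 0.496 for small against large, 0.410 for small against spontaneous and 0.990 for large against spontaneous. The difference in mean CPM between small and large oocytes, -2.06, rested on single pools: it was -4.55 without large replicate 6 (exact permutation p = 0.0303) and -0.036 without small replicate 1 (exact permutation p = 0.939). GIMAP5 had 5 reads in large replicate 3 and none in the other oocyte pools. GIMAP7 had 7 reads in spontaneous replicate 2 and 1 read in spontaneous replicate 3. In all, 10 exact permutation tests of mean CPM between classifications were made on members with all pools, besides those with single pools left out. Exact tests of GIMAP8 between same-numbered CC and oocyte pools were also run. They are not reported here, because the labels do not say that such pools share complexes.

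GIMAP1 (ENSBTAG00000040331), the further gene whose symbol starts with GIMAP, had 14 reads in 7 CC pools, with at most 1.07 CPM, and 9 reads in a single oocyte pool. It acts in the development of mature lymphocytes. Its counts allow no comparison between classifications.

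Since GIMAP genes are known from white blood cells, PTPRC (CD45, a phosphatase on nearly all nucleated blood cells, ENSBTAG00000023144) and CD74 (the invariant chain of MHC class II, ENSBTAG00000015228) were read in the same pools. In bulk pools, fewer cells of a type and less RNA per cell cannot be told apart. PTPRC was 2.45, 5.23, 19.4, 9.11, 13.0 and 7.10 CPM in small CC replicates 1 to 6. It was 6.95, 4.27, 3.82, 2.54, 1.14 and 24.4 CPM in large replicates 1 to 6, and 8.36, 10.3, 7.62, 10.5 and 6.83 CPM in spontaneous replicates 1 to 5. The 3 classifications overlapped in PTPRC, and the highest and the lowest value both came from large pools.

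Mean PTPRC was 9.38 ± 6.06 CPM (SD, n = 6) in CC from small follicles, 7.18 ± 8.65 CPM (SD, n = 6) in CC from large follicles and 8.74 ± 1.64 CPM (SD, n = 5) in spontaneous CC. Its log2(CPM + 1) difference was -0.62 (SE 0.54; limma adjusted p = 0.999) from small to large. From small to spontaneous it was 0.11 (SE 0.39; limma adjusted p = 0.957). CD74 ranged from 18.4 to 125 CPM with a median of 47.9 in small, from 13.9 to 68.1 CPM with a median of 29.7 in large, and from 20.5 to 122 CPM with a median of 49.9 in spontaneous CC. Its differences were -0.61 (SE 0.45; limma adjusted p = 0.999) and 0.16 (SE 0.46; limma adjusted p = 0.941).

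Within a pool, the ratio of GIMAP8 to PTPRC reads was 0.162 to 1 in small pools, with a median of 0.31. It was 1.19 to 26.5 in large pools, with a median of 4.29, and 1.68 to 5.65 in spontaneous pools, with a median of 1.90. The ratio compares pools and not the levels of the genes, whose lengths differ. Small pools were lowest in this ratio, which reuses the GIMAP8 values that chose the family and is a description. The ratio of GIMAP8 to CD74 reads was 0.0251 to 0.133 in small, 0.25 to 2.04 in large and 0.143 to 0.946 in spontaneous pools. With log2(CPM + 1) of PTPRC as a covariate, a fit added after the data were seen, the GIMAP8 difference was 2.63 from small to large and 2.59 from small to spontaneous, again as a description of the values that chose the family. The part of PTPRC-bearing cells in the GIMAP8 values was not tested.

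**Figure D3:**
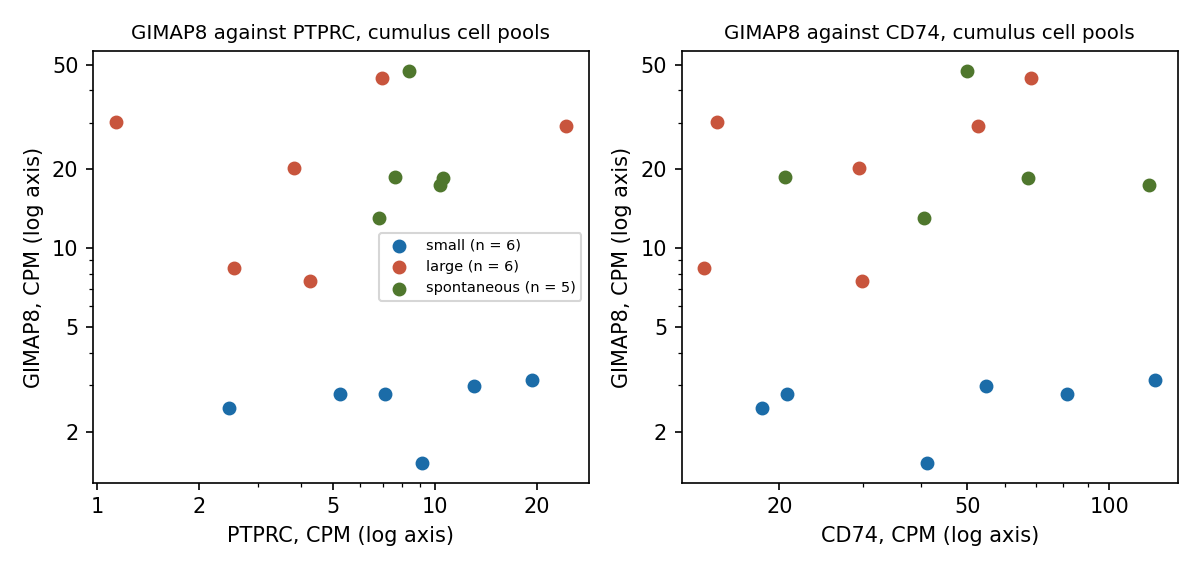
GIMAP8 (y axes, CPM, log axis) against PTPRC (left) and CD74 (right; x axes, CPM, log axes) in the 17 CC pools, with follicle classification by colour. Small pools form a low band from 1.52 to 3.14 CPM of GIMAP8 while PTPRC runs from 2.45 to 19.4 CPM and CD74 from 18.4 to 125 CPM in them.

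The association within classifications was tested with limma across all CC transcripts, with a term for the classification. The slope of GIMAP8 per unit of log2(CPM + 1) was 0.18 (SE 0.19; limma adjusted p = 0.733) for PTPRC and 0.22 (SE 0.18; limma adjusted p = 0.554) for CD74. An adjusted p under 0.05 was reached by 0.0103% of 9711 transcripts for PTPRC and 0.0412% for CD74, so few transcripts passed this test in 17 pools. For CD74 these were 4 transcripts, 3 of them with a positive slope. They included LAPTM5, a listed white blood cell gene (slope 0.91, limma adjusted p = 0.00177). BoLA DR-ALPHA, named after its values were seen, also passed for CD74 (slope 0.57, limma adjusted p = 0.0394). CD74 itself had a slope of 0.72 on PTPRC (limma adjusted p = 0.144). Among the other 20 retained white blood cell genes listed, 16 had a positive slope on PTPRC, with a median of 0.54, where 29.6% of all transcripts had a positive slope and the median was -0.08. No gene among these 20 passed the adjusted threshold in limma for PTPRC, and the unadjusted p for PTPRC was under 0.05 for 12 of them and for 12.2% of all transcripts.

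As a description over the 17 CC pools, each centred on its classification, Pearson r with PTPRC was 0.24 for GIMAP8, 0.62 for GIMAP4, 0.32 for GIMAP5 and 0.71 for GIMAP7. With CD74 it was 0.29, 0.35, -0.02 and 0.29. The values of GIMAP4, GIMAP5 and GIMAP7 rest on few reads, and the points of a pool share a library and its depth. GIMAP7 and PTPRC were both highest in large replicate 6. The r of GIMAP8 with PTPRC ranked 1204 and that with CD74 ranked 816 among 9711 transcripts, whose median r with GIMAP8 was -0.05.

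Oocyte pools offered a view with little of either marker. PTPRC had 4 reads in large replicate 6, 1 read in spontaneous replicate 2 and none in the other oocyte pools. CD74 reached 18.5 CPM in large replicate 6, 4.99 CPM in spontaneous replicate 2 and 1.96 CPM in small replicate 3, and was 0.46 CPM or less elsewhere. GIMAP8 at 8.27 and 9.08 CPM in small replicates 1 and 4, and GIMAP4 at 15.3 and 10.4 CPM in small replicates 1 and 5, were measured in pools with 0 reads of PTPRC and of CD74. GIMAP4 at 15.6 CPM in large replicate 6 was measured in the pool with the highest CD74.

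The wider lists of white blood cell genes were present in all CC pools at low levels. Of 80 rows matched for pan-leukocyte, lymphocyte and myeloid genes, 21 were retained. In limma none of the 21 passed the nominal threshold in any CC comparison, and none passed it in edgeR or DESeq2. An unadjusted p under 0.05 was reached by 0 of 21 from small to large, 0 from small to spontaneous and 1 when spontaneous was set against large. Over all transcripts this share was 4.0%, 8.55% and 7.07%. The median difference of the 21 was -0.26, 0.19 and 0.71 on the log2(CPM + 1) scale in these comparisons, beside 0.045, 0.16 and 0.11 over all transcripts. Of the 21 genes, 7 were higher in large than in small pools, 13 higher in spontaneous than in small pools, and 18 higher in spontaneous than in large pools. Over all retained transcripts these shares were 56.0%, 71.9% and 65.6%. In oocyte pools, where PTPRC was at or near 0, 11 rows of these lists were also retained, led by CSF1R at a mean of 176 CPM.

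Pan-leukocyte genes summed to 41.4 to 137 CPM in small, 31.8 to 266 CPM in large and 62.4 to 219 CPM in spontaneous CC. The highest were LAPTM5, a lysosomal membrane protein of blood cells, CD37, a tetraspanin, LCP1, an actin-bundling protein, and PTPRC. LAPTM5 averaged 26.3, 24.5 and 41.5 CPM in small, large and spontaneous CC. Myeloid genes, led by S100A12, C1QB, FCER1G and CSF1R, summed to 48.8 to 270 CPM in small, 43.3 to 244 CPM in large and 73.7 to 264 CPM in spontaneous CC. C1QB, a complement component of macrophages, averaged 17.9, 14.6 and 26.1 CPM. The ranges of the 3 classifications overlapped for both lists. In oocyte pools, which held little PTPRC, pan-leukocyte genes summed to 59.9 to 136 CPM and myeloid genes to 125 to 267 CPM. Neither sum thus measures white blood cells alone.

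T and NK lymphocytes are the cells with which GIMAP genes are most closely tied, and no gene of their list was retained in CC. Their sum was 7.67 to 38.7 CPM in small, with a median of 12.3, 9.95 to 69.3 CPM in large, with a median of 20.2, and 16.5 to 66.1 CPM in spontaneous CC, with a median of 18.2. The highest were IL2RG, NKG7, IL7R and CD247. The top pool was large replicate 6 with 69.3 CPM, where CD3E, a subunit of the T-cell receptor complex, stood at 16.7 CPM, and GIMAP7 at its own highest value. B lymphocyte genes summed to 1.53 to 29.2, 6.44 to 29.5 and 12.3 to 30.3 CPM, mostly from CR2, a complement receptor, with JCHAIN, BLNK and CD79A far lower. In oocyte pools the T and NK list summed to 60.9 to 142 CPM, so its sum does not measure these lymphocytes alone. The part of lymphocytes in the GIMAP values was not tested.

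**Figure D4:**
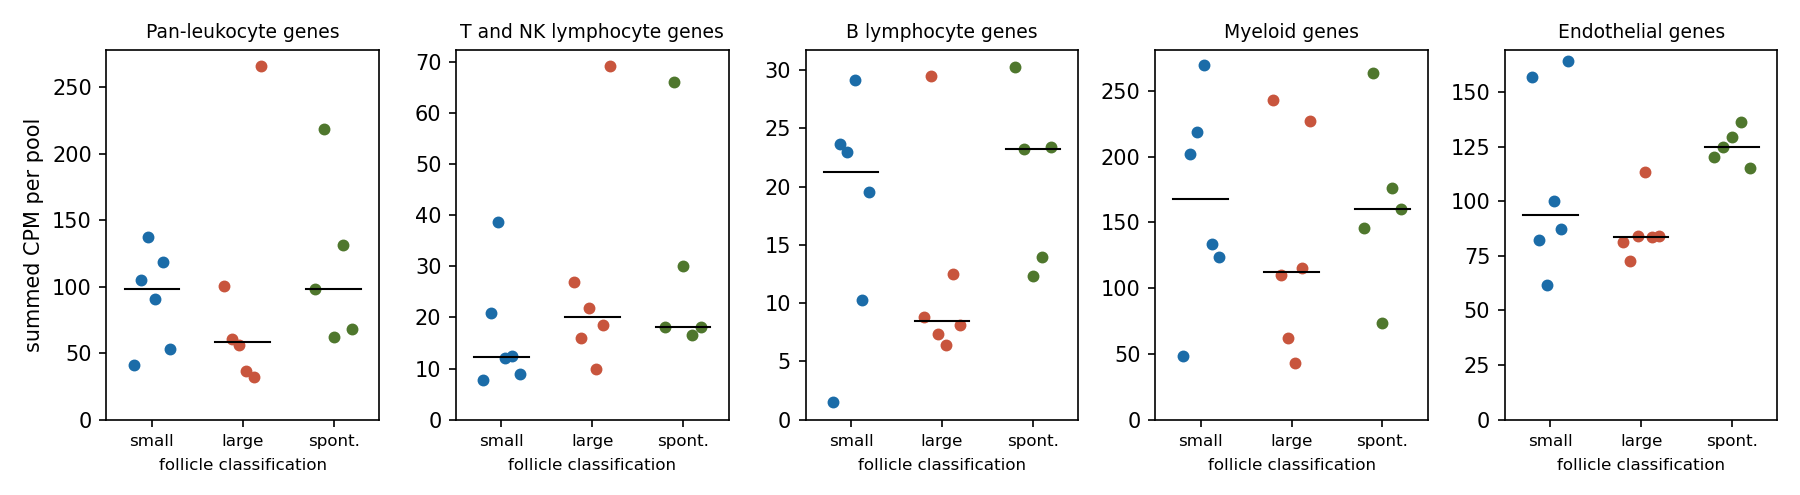
Summed CPM per CC pool (y axes, linear from 0, each with its own range) of the pan-leukocyte, T and NK lymphocyte, B lymphocyte, myeloid and endothelial lists by follicle classification (x axes; spont. is spontaneous). Points are pools and lines are medians; the small pools lie within or overlap the ranges of the other classifications in each list.

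Endothelial genes summed to 61.7 to 164 CPM in small, 72.6 to 113 CPM in large and 115 to 136 CPM in spontaneous CC. Only FLT1 and KDR, receptors of vascular endothelial growth factors, were retained, and neither passed the nominal threshold in limma, edgeR or DESeq2. An unadjusted limma p under 0.05 was reached by 0 of the 2 against the small pools and by 1 between large and spontaneous pools, where it was reached by 7.07% of all transcripts. Other endothelial genes were low, with mean levels of 3.91 CPM for CLEC14A and 3.03 CPM for TEK over the CC pools. The endothelial list summed to 176 to 285 CPM in oocyte pools, so its sum does not measure endothelial cells alone. Of the 12 MHC class II symbols listed, 7 were not matched in CC, and of the matched rows CD74 alone was retained. The match was by exact symbol, and BoLA DR-ALPHA, spelled otherwise in the list, was retained in CC but not counted. The list therefore does not measure MHC class II genes as a whole. Red blood cell genes, highest for EPB42, HBB, AHSP and ALAS2, summed to at most 5.34 CPM in any CC pool.

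Theca and stroma genes, led by INSL3, COL1A1, PDGFRA and COL1A2, summed to 349 to 1338 CPM in small, 779 to 1104 CPM in large and 827 to 3450 CPM in spontaneous CC. Among the 7 retained, 1 passed the nominal limma threshold from small to spontaneous CC, as did 2.38% of all transcripts. It was PDGFRA, a growth factor receptor of stromal cells, with 124 ± 108 against 245 ± 125 CPM (SD, n = 6 and 5; limma adjusted p = 0.418). Of the 7, edgeR called 1 in that comparison and 1 from large to spontaneous, beside 1.32% and 1.31% of all transcripts. From small to large, 2 had an unadjusted limma p under 0.05 and DESeq2 called 1, beside 4.0% and 1.15% of all transcripts. Of the 12 retained cumulus and granulosa genes, none passed the nominal limma threshold against the small pools, while 1 was called by edgeR and 1 by DESeq2 from small to spontaneous, where 3 had an unadjusted limma p under 0.05. Over all transcripts of that comparison, 1.32% were called by edgeR and 2.23% by DESeq2, and 8.55% had an unadjusted limma p under 0.05. From large to spontaneous CC, 2 of the 12 passed the nominal limma threshold and 4 had an unadjusted limma p under 0.05. Over all transcripts these shares were 1.66% and 7.07%. The 2 called were INHA, an inhibin subunit, and CYP19A1, the aromatase. Both were higher in spontaneous than in large CC, by 0.89 (SE 0.29) and 1.74 (SE 0.58), with a limma adjusted p of 0.567 for both. Neither edgeR nor DESeq2 called any of the 12 there, where they called 1.31% and 2.05% of all transcripts. No adjusted p of these lists was under 0.05.

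Proteins that GIMAP members are known to bind or act with, and their close relatives formed a list of their own. It held members of the BCL2 family, GABARAP and LC3 proteins of autophagy and the kinase GSK3B, among others. In CC 14 of 16 matched rows were retained, and none passed the nominal threshold in any CC comparison in limma or edgeR, while DESeq2 called 1 from small to spontaneous. An unadjusted limma p under 0.05 was reached by 1, 1 and 2 of the 14 in the order of comparisons used above, and by 4.0%, 8.55% and 7.07% of all transcripts. The DESeq2 threshold was passed by 2.23% of all transcripts from small to spontaneous. Their median difference was -0.12, 0.12 and 0.16.

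MCL1, which protects cells from apoptosis, averaged 347 ± 71.6 CPM in small, 389 ± 96.1 CPM in large and 366 ± 36.7 CPM in spontaneous CC (SD, n = 6, 6 and 5). GABARAP had a mean of 218 CPM over the CC pools. In oocytes 12 of the partner rows were retained and none passed the nominal threshold in limma, edgeR or DESeq2, nor reached an unadjusted limma p under 0.05. That p was reached by 4.11% (small to large), 4.51% (small to spontaneous) and 4.87% (large to spontaneous) of all oocyte transcripts. In the same order, edgeR called 0.685%, 0.715% and 0.903% and DESeq2 1.4%, 1.55% and 1.8%. So few rows would give few calls at these shares.

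The transcripts most like GIMAP8 were those with the highest Pearson r over the 17 CC pools, each value centred on its classification. In order they were SIPA1L2, WDR62, MTFR2, PECR, MEST, RILPL2, TNFRSF21, TPGS2, CDK7 and SEMA6D, with r from 0.76 to 0.63. None of the 10 is in a white blood cell list, but only 21 of all 9712 retained CC transcripts are. A count of 0 among 10 therefore says nothing about white blood cell genes. SIPA1L2, of a family of Rap GTPase-activating proteins, was higher in small CC (15.6 ± 5.25 CPM) than in large (8.07 ± 6.67 CPM) or spontaneous CC (10.3 ± 4.08 CPM), which is the other direction from GIMAP8. MTFR2, named for mitochondrial fission, averaged 76.9 ± 17.5 CPM in small, 120 ± 35.0 CPM in large and 111 ± 28.6 CPM in spontaneous CC. Its mean was lowest in small CC, as for GIMAP8. TNFRSF21, a death receptor, averaged 118 ± 23.8, 152 ± 56.9 and 182 ± 17.7 CPM. These r values are the top of 9711 and carry no test.

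In the reference gene table the GIMAP genes lie together on chromosome 4, in the ARS-UCD2.0 assembly. That cluster runs over 13 protein-coding genes from GIMAP8 at its first position to GIMAP5 at its last, with GIMAP4, GIMAP6, GIMAP2 and GIMAP1 between them. Because reads were aligned to another assembly, UMD3.1, the table was used for the order of genes alone. Of the 5 genes on either side, 6 had a row in the CC table and 4 were retained.

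REPIN1, a zinc finger protein on the GIMAP8 side, averaged 3.86 ± 1.59 CPM in small, 6.75 ± 2.60 CPM in large and 4.70 ± 1.62 CPM in spontaneous CC. Its log2(CPM + 1) difference was 0.69 from small to large and 0.26 from small to spontaneous. TMEM176B and TMEM176A, membrane proteins on the other side, differed by -0.03 and -0.17 from small to large and by 0.49 and 0.48 from small to spontaneous. KCNH2, a potassium channel, differed by 0.15 and 0.24. LRRC61 and AOC1 were below the filter and were not fitted. LRRC61 averaged 4.91 CPM in small, 3.49 CPM in large and 1.89 CPM in spontaneous CC, and AOC1 averaged 0, 0.415 and 0.320 CPM. Differences of the 4 retained neighbours were at most 0.69 in size, beside 2.51 and 2.60 for GIMAP8, the values by which the family was chosen.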

How the data were processed

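The deposited values were CPM per Ensembl gene, in a table of 17 CC pools and a table of 16 oocyte pools. Per the study's methods, the authors amplified RNA of each pool, trimmed reads with fqtrim, used Hisat2 and the UMD3.1 genome for alignment and featureCounts for counting, and scaled counts to CPM. Amplification and scaling to all reads on genes, mitochondrial reads included, bear on low transcripts. Whole reads were recovered for 100% of values (tolerance 0.01), and all columns were matched to samples. The members and gene lists were chosen with earlier results of these data known.

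Transcripts held at 5 CPM or above by 5 or more CC or 4 or more oocyte pools were tested with limma 3.58.1 (R 4.3.3) on log2(CPM + 1), on the pools of 2 classifications at a time, with a mean-variance trend, two-sided, at a nominal p of 0.01 or less, with Benjamini-Hochberg adjustment over all transcripts tested. Fold changes are the later named minus the first named classification. Single members were tested by exact permutation of mean CPM (scipy 1.17.1). Count tests on recovered reads, edgeR 4.0.16 quasi-likelihood and DESeq2 1.42.0, were alternatives, besides another pseudocount, other filters and scalings, a replicate block and leaving out each pool. Code was tested on simulated data. Each pool combined complexes of several cows, so p-values measure the spread between pools. No pair of libraries was a duplicate: the lowest chi-square per degree of freedom was 14.4 in CC and 64.1 in oocytes.

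Named genes were the members, PTPRC and CD74, other GIMAP symbols, the 10 transcripts most like GIMAP8, the 4 highest of each list with any that passed the threshold, and 5 neighbours on each side of the cluster. Some genes named by this rule are not reported here. No protein or promoter sequence was used.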

Additional observations from a re-analysis of the deposited data

Results flagged for a closer look

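Of 35 groups of 4 to 6 pools checked for a pool far from the rest, 18 had one, where chance gives about 1 in 20; for transcripts with 0 reads in most pools, any pool with reads stands apart. In CC these were GIMAP4 at 1.57 CPM and GIMAP7 at 1.57 CPM in small replicate 3, the shallowest pool, where each value is 3 reads. GIMAP5 at 1.28 CPM and GIMAP1 at 0.428 CPM stood apart in small replicate 5. GIMAP7 stood apart at 10.4 CPM in large replicate 6 and at 1.82 CPM in spontaneous replicate 3, and PTPRC at 24.4 CPM in large replicate 6. GIMAP8 stood apart at 47.2 CPM in spontaneous replicate 1, against 13.0 to 18.7 CPM in the other spontaneous pools.

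In oocytes GIMAP8 stood apart at 7.65 CPM in large replicate 2. Large replicate 6 stood apart for GIMAP4 at 15.6 CPM, PTPRC at 0.338 CPM and CD74 at 18.5 CPM, and spontaneous replicate 2 for GIMAP7 at 0.472 CPM, PTPRC at 0.0675 CPM and CD74 at 4.99 CPM. Single further pools were GIMAP5 at 0.389 CPM in large replicate 3, GIMAP1 at 0.701 CPM in small replicate 5 and CD74 at 1.96 CPM in small replicate 3.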

How the results depend on the processing

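Of 171 GIMAP8 values under alternatives, 162 kept their direction and, where tested, their side of the threshold, 8 reversed and 1 changed its call. These counts include the CC comparisons with small pools, by which the family was chosen. Values of those comparisons carry no test, and that they kept their direction is a description only. The difference between large and spontaneous CC, 0.09, reversed to -0.0064 with median-of-ratios scaling, -0.12 in edgeR, -0.12 in DESeq2, -0.088 with PTPRC as a covariate, and ranged from -0.20 to 0.32 when 1 pool was left out, reversing without large replicate 2 (-0.16), large replicate 4 (-0.13) or spontaneous replicate 1 (-0.20). The slope on PTPRC became -0.038 without a term for the classification and ranged from 0.11 to 0.35 without single pools. The difference between large and spontaneous oocytes ranged from 1.46 to 2.25 without single pools and passed the threshold without large replicate 2 (2.25). Without single pools GIMAP8 differed by 2.28 to 2.77 (small to large CC), 2.32 to 2.76 (small to spontaneous CC), -1.10 to -0.37 and 0.77 to 1.47 (small oocytes to large and spontaneous), and its slope on CD74 was 0.10 to 0.29. Of 77 values of the lower members 1 reversed, GIMAP4 between large and spontaneous oocytes, from a mean CPM difference of -1.52 to 0.96 without large replicate 6 (-2.18 to 0.96 without single pools). Between small and large oocytes the GIMAP4 difference of -2.06 became -4.55 without large replicate 6, with an exact permutation p of 0.0303, and -0.036 without small replicate 1. The cause was not tested.

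Replicate numbers did not pair pools of different classifications within a cell type (deviations of same-numbered pools correlated at -0.19 to 0.22 over 30 pairs, 5 of them the best match). With a replicate block GIMAP8 differed by 2.51, 2.62 and 0.20 in CC and by -0.69, 0.78 and 1.76 in oocytes, and its slopes were 0.21 on PTPRC and 0.32 on CD74, with no call changed. Called transcripts numbered 79, 231 and 161 in CC (small to large, small to spontaneous, large to spontaneous) and 90, 95 and 95 in oocytes before small replicate 3 was left out. The first count moved by more than 1.5 times to 121 without the filter, to 137 with all classifications in 1 fit and to 52 without small replicate 5. The second moved to 126 with median-of-ratios scaling, 129 without mitochondrial genes, 128 in edgeR and 144 without spontaneous replicate 5. The third moved to 296 with PTPRC as a covariate and to 91 and 100 without spontaneous replicates 4 and 5. In oocytes DESeq2 called 141, 156 and 181, and the last count also moved to 148 without the filter and to 144 without spontaneous replicate 2. Small CC pools held 5 to 16 GIMAP8 reads, which limits the precision of every ratio against them.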
